A study of Mus musculus with 8 samples.

Results

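The 8 genes described here write, copy, remove or read DNA methylation: the methyltransferases *Dnmt1*, *Dnmt3a* and *Dnmt3b*, the replication cofactor *Uhrf1*, the dioxygenases *Tet1*, *Tet2* and *Tet3*, and the methyl-DNA reader *Mbd2*. They were chosen by name, all 8 were found among 53360 annotated genes, and *Dnmt1* and *Uhrf1* were kept apart from the other 6 because both genes are linked to proliferation. RNA was sequenced in 8 libraries of Treg cells, 1 per condition, so there was no replicate of any condition, and every comparison below is between single libraries. Of these, 6 libraries formed the total Treg experiment. The other 2 formed a separate experiment on aTreg cells, which are CD44hi CD62Llo activated Treg cells, and levels were not compared between the experiments.

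All mice were 3-4 weeks old and came from lines backcrossed to C57BL/6. They carried R26CAG-FlpoER, a TAM-inducible FLP recombinase driven by the ubiquitous CAG promoter, and at least 1 floxed *Brg1* allele. The cells were sorted from spleen and LN. The Cre recombinase was expressed from the X-linked *Foxp3* locus, and thus in Treg cells. WT cells were BrgF/+ Foxp3YFP-Cre/+ and so kept 1 *Brg1* allele after Cre. In mosaic BrgF/ΔR females, the Brg1-sufficient Treg cells were labelled Foxp3+/+ and the Brg1-deleted ones Foxp3YFP-Cre. Here ΔR is a GFP-marked gene trap that FLP can excise. The study's methods give the ΔR line a mixed background, backcrossed to C57BL/6 for fewer generations than the other lines. The paper describes the mosaic and WT mice as healthy and the rKO1 mice as severely inflamed. Its treated rKO1 mice were given a low dose of TAM, which restored *Brg1* in a fraction of Treg cells. Untreated rKO1 Treg cells were labelled BrgF/deltaR Foxp3YFP-Cre/YFP-Cre. The GFP+ Brg1-deleted library had the same genotype after TAM, and its GFP- Brg1-reexpressed partner, labelled BrgF/+ after excision of the trap, was sorted from rKO1 mice with it on Day 7 after TAM. The same Day 7 sort was made for the aTreg pair, but there the labels conflict. The library labelled Brg1-deleted is described as BrgF/F and its values are headed as WT, while the library labelled Brg1-reexpressed is described as BrgF/+.

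DNA methylation in mammals sits mainly on cytosines of CpG dinucleotides. DNMT3A and DNMT3B set new methyl groups, whereas DNMT1, guided by UHRF1 to hemimethylated DNA behind the replication fork, copies the pattern to the new strand. TET1, TET2 and TET3 oxidise 5-methylcytosine, from which unmodified cytosine is regained by repair or by dilution at replication, and in Treg cells this matters for the conserved *Foxp3* intronic enhancer whose demethylated state stabilises *Foxp3* transcription. MBD2 binds methylated CpG and recruits the NuRD complex.

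*Dnmt1* and *Uhrf1* are shown by sequence first, because they are the pair the design sets apart as linked to the cell cycle. Promoter windows of 250 bases before an annotated start were taken from RefSeq (GRCm38.p6) for 7 of the 8 genes, 12 windows in all. They were searched on both strands for the E2F words TTTCCCGC, TTTCGCGC, TTTGCCGC and TTTGGCGC, which belong to a family of factors active at the G1/S transition. Only *Dnmt1* and *Uhrf1* held such a word, against 1.86% of 32851 windows and 2.16% of 27025 genes, and 5 of the 18 S phase genes with a window held one. A gene counted when any of its windows held a word. For both *Dnmt1* and *Uhrf1* it was a single window, and their other windows held none. Both held TTTCGCGC, in capitals, on the minus strand of the *Dnmt1* transcript orientation (and thus written GCGCGAAA) and on the plus strand of *Uhrf1*. The *Dnmt1* word, 219 to 212 bases before an annotated start, overlaps an annotated exon and UTR, and other annotated *Dnmt1* starts lie further upstream. Its window also overlaps annotated coding sequence, so the word is shown with its immediate flanks only. The *Uhrf1* word, 185 to 178 bases before an annotated start, overlaps no annotated exon, and another annotated *Uhrf1* start lies further upstream. The match describes these letters and shows no binding.
Dnmt1, GRCm38.p6 chr9:20952824-20952853, minus strand: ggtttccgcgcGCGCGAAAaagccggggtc
Uhrf1, GRCm38.p6 chr17:56304063-56304312, plus strand: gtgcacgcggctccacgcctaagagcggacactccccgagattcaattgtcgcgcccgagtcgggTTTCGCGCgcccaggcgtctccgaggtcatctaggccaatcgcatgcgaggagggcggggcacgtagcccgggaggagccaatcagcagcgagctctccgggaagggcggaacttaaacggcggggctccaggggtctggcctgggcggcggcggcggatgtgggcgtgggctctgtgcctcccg

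The libraries held between 16368588 and 24176528 reads on genes. Levels are given in CPM, the usual scale of reads relative to the library total, after TMM scaling, and an interval beside a value is the exact 95% interval of its reads, which covers counting error only. All 7 Treg markers, *Foxp3* included, were above 3 reads in each library, a floor that shows presence only. Over the total Treg libraries, *Foxp3* ran from 72.8 CPM in WT to 534 CPM in mosaic Brg1-sufficient cells. *Smarca4*, which encodes BRG1, stood at 87.6 CPM in WT and 76.8 CPM in mosaic Brg1-sufficient cells, and at 47.0, 43.8 and 35.9 CPM in the mosaic Brg1-deleted, untreated rKO1 and GFP+ Brg1-deleted libraries, with 57.8 CPM in the GFP- reexpressed library. In aTreg cells it went against the labels, at 71.2 CPM in the library labelled Brg1-deleted and 59.4 CPM in that labelled Brg1-reexpressed. Exons before the gene trap are still transcribed in the ΔR allele, so that the count is only a partial check. Reads of the Y-linked *Ddx3y*, *Eif2s3y*, *Kdm5d* and *Uty* were at 0 in WT and both mosaic libraries and present in the other 5. The untreated rKO1 library, labelled with a pair of X-linked *Foxp3* alleles, held 118 CPM of *Eif2s3y* and 0.520 CPM of *Xist*, the RNA of the inactive X chromosome, which goes against its label. The other 4 with Y-linked reads, labelled likewise, held 12.3 to 50.7 CPM of *Xist*.

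Per exon length, *Mbd2* was the most abundant of the 8 genes, with a median of 65.9 FPKM over the 6 total Treg libraries. *Dnmt1* followed at 7.77 FPKM and *Uhrf1* at 7.21 FPKM, and *Dnmt3a*, *Tet3*, *Tet2* and *Dnmt3b* had medians of 3.69, 2.92, 1.80 and 1.34 FPKM. *Tet1* was lowest, at 0.320 FPKM. *Mbd2* also led and *Tet1* also came last in aTreg cells, with 78.9 and 0.177 FPKM, where *Tet3*, at 3.83 FPKM, stood above *Uhrf1* at 3.43 FPKM and *Dnmt3a* at 2.54 FPKM. Across the 6 total Treg libraries, the highest and lowest CPM of *Mbd2*, *Tet2* and *Dnmt1* were 1.65-, 1.79- and 1.98-fold apart, and those of *Dnmt3a* 2.06-fold. *Uhrf1*, *Dnmt3b*, *Tet1* and *Tet3* ranged more widely, by 3.00-, 3.85-, 3.91- and 4.11-fold.

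**Figure D1:**
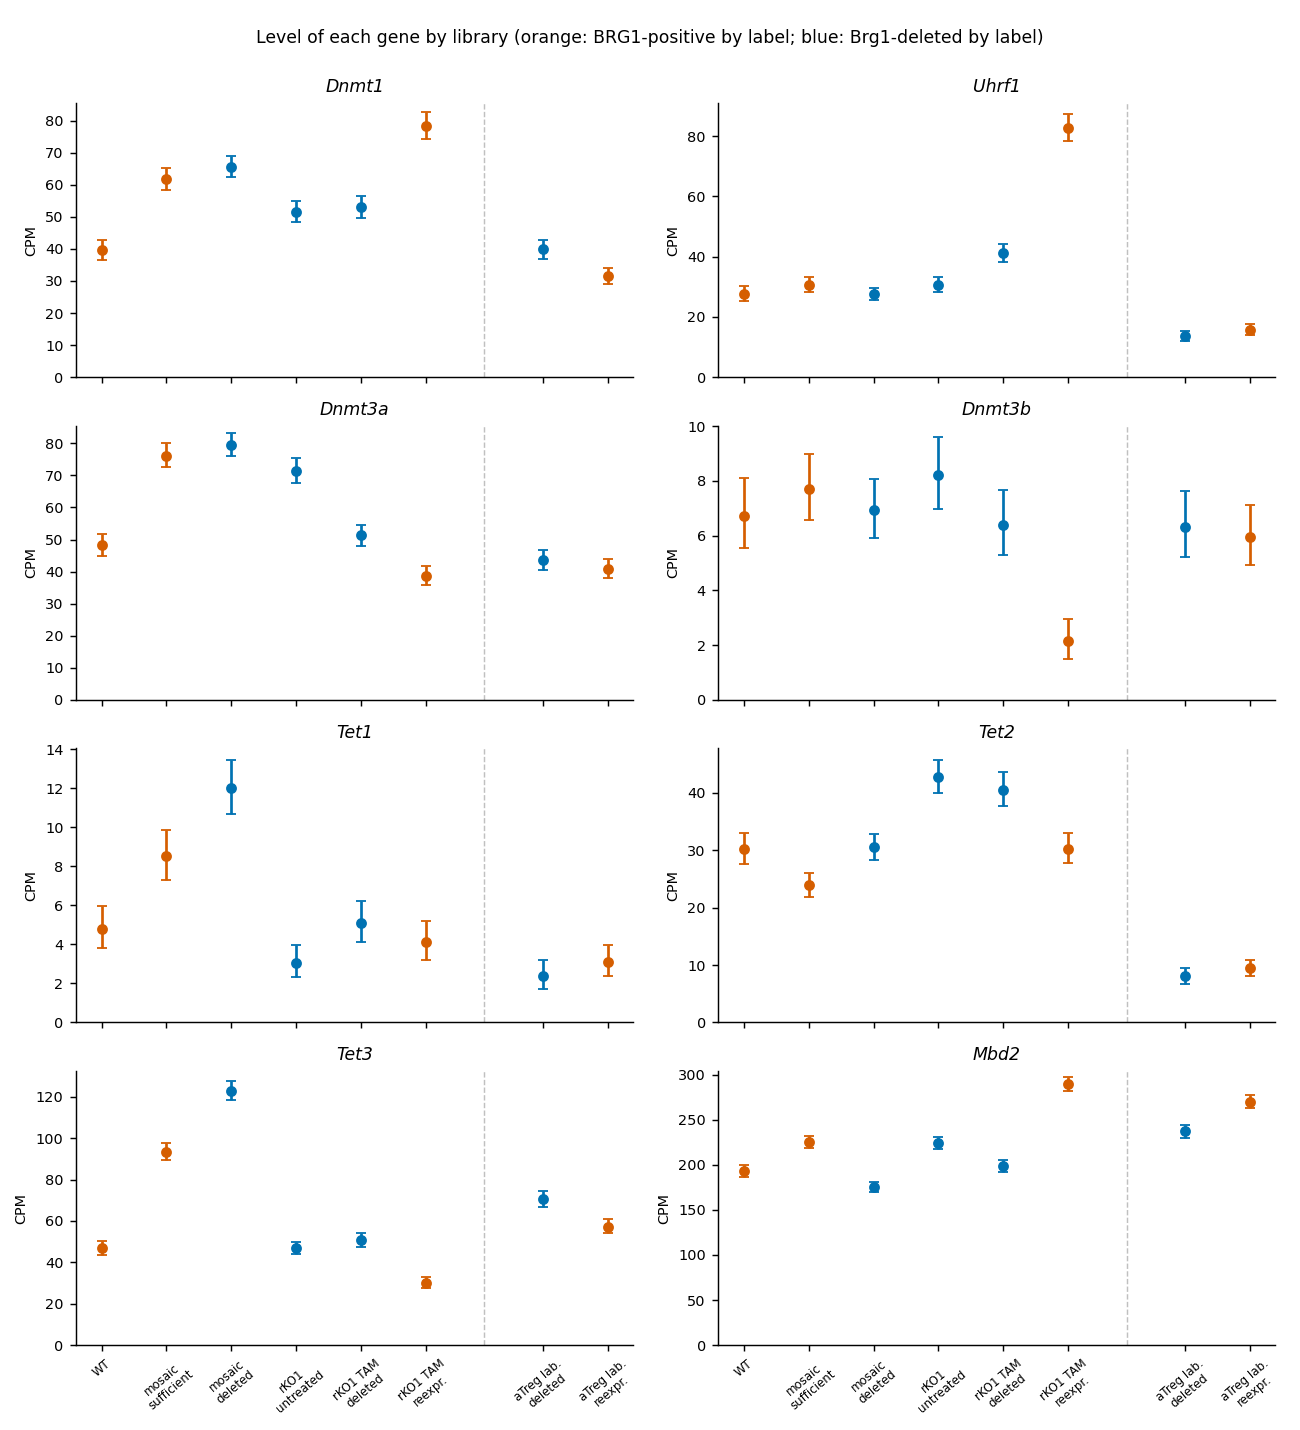
CPM of each of the 8 genes (vertical axes from 0) in each library, with exact 95% counting intervals; orange points are libraries labelled BRG1-positive, blue points those labelled Brg1-deleted, and the dashed line parts the 6 total Treg libraries from the 2 aTreg libraries. *Dnmt3b* was lowest in the GFP- reexpressed library, at 2.14 CPM, whereas *Uhrf1* was highest there, at 82.7 CPM, and *Tet3* was highest in the mosaic pair, at 93.4 and 123 CPM.

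The first question was how the 8 genes differed with BRG1 within each sorted pair. A gene counted as called when it had at least 5 CPM in either library and differed at least 2-fold. None of the 8 genes was called in the mosaic pair, against 5.93% of 9985 tested genes. In the rKO1 pair after TAM, *Dnmt3b* alone was called, against 12.6% of 10253 tested genes (5.82% lower in the reexpressed library), and *Uhrf1* lay at the threshold. No gene was called in the aTreg pair, where *Tet1* stayed under 5 CPM and 7 were tested, against 6.44% of 10035 genes. Called genes were split into 392 higher and 200 lower in mosaic Brg1-sufficient cells and 700 higher and 597 lower in reexpressed cells. TMM lies above scaling by total count by a log2 shift of 0.13 in the mosaic and 0.35 in the rKO1 pair, and by total count the splits were 301 and 305, and 373 and 1250. *Tet3* was then called as well in the rKO1 pair, and no difference of the 8 genes changed its sign. The 1 call among 8 genes in the rKO1 pair was close to the background share. Over all tested genes the median log2 fold change was 0.03, 0.07 and -0.06 in the mosaic, rKO1 and aTreg pairs.

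As a measure of how far single libraries of like BRG1 status lie apart, differences were set beside those of the 500 genes nearest in level in 2 pairs. The untreated and GFP+ Brg1-deleted rKO1 libraries formed the closer pair, and WT and mosaic Brg1-sufficient the wider one. The limit is the log2 difference that 95% of these genes stayed under. Both limits come from total Treg libraries and were used for the aTreg pair too, as that experiment had no pair of like status. None of the 8 genes passed the wider limit in the mosaic, rKO1 or aTreg comparison. In the rKO1 comparison, *Uhrf1* and *Tet3* passed the closer one.

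**Figure D2:**
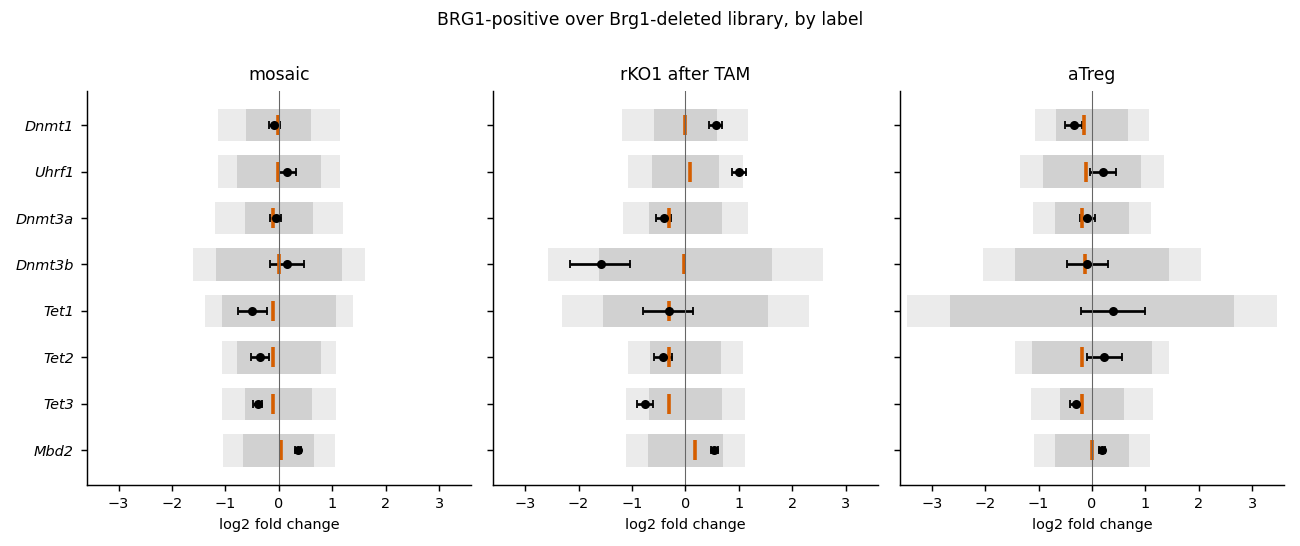
Log2 fold change of each gene, BRG1-positive over Brg1-deleted by label, in the mosaic, rKO1 after TAM and aTreg pairs, with exact 95% counting intervals; dark and light grey bars are the smaller and larger of both library-to-library limits, and orange ticks are the median of the 500 tested genes nearest in exon length (none for *Tet1* in aTreg cells). *Dnmt3b* in the rKO1 pair, at -1.58, was the farthest from 0 and still lay inside the dark bar.

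The maintenance pair was read beside 23 S phase genes that act in replication licensing, nucleotide supply and DNA synthesis. *Dnmt1* had 39.6 CPM in WT, 61.7 and 65.5 CPM in mosaic Brg1-sufficient and Brg1-deleted cells, 51.6 CPM in untreated rKO1, 53.0 CPM in GFP+ and 78.4 CPM in GFP- reexpressed cells. *Uhrf1*, the SET- and RING-associated domain protein that directs DNMT1 to hemimethylated CpG, had 27.7, 30.7, 27.6, 30.7, 41.2 and 82.7 CPM in the same order. Both genes were thus highest in the GFP- reexpressed library. GFP+ cells came next for *Uhrf1*, and the remaining 4 libraries did not differ from their neighbours in rank beyond counting error. *Dnmt1* was lowest in WT.

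In the rKO1 pair after TAM, *Uhrf1* was 2.01-fold higher (1.84 to 2.20) in reexpressed than in GFP+ cells and *Dnmt1* 1.48-fold (1.36 to 1.61). With scaling over only the 2 libraries compared, by which calls were counted, *Uhrf1* came to 1.98-fold and was not called. All 22 tested S phase genes were higher in the reexpressed library, and 10 were called, against 6.83% of tested genes called as higher there. Their median log2 fold change was 1.01 against 0.07 over all tested genes. The smallest was 0.60 for *Mcm4*, a subunit of the replicative helicase, and the largest 2.23 for *Rrm2*, the small subunit of ribonucleotide reductase. *Uhrf1*, at 1.01, stood at the median of this list, with 12 of its genes above and 10 below. *Dnmt1*, at 0.56, was below all 22. The 12 mitosis genes had a median of 1.73. Set against WT and mosaic Brg1-sufficient cells, *Uhrf1* in the reexpressed library also passed the wider limit, in comparisons where 16.7% and 21.4% of genes were called.

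In the mosaic pair, *Dnmt1* and *Uhrf1* did not differ beyond counting error. Here *Uhrf1* was 1.11-fold higher (0.998 to 1.24) and *Dnmt1* 1.06-fold lower (0.987 to 1.14) in Brg1-sufficient cells, with an S phase median of 0.26 over 21 tested genes, of which none was called. *Gins2*, of the GINS helicase complex, was at 0.74 and *Ccne1*, encoding cyclin E1, at -0.53. Between WT and mosaic Brg1-sufficient cells, 2 libraries labelled as BRG1-positive, *Dnmt1* was 1.56-fold lower in WT (log2 -0.64), below all 22 S phase genes, while *Uhrf1* was at -0.15. The S phase genes themselves ran from -0.49 to 1.86 there, with a median of 0.26, and 4 of 22 were called as higher in WT, against 4.4% of tested genes. As the ratio of reads within a library, which no scaling between libraries can alter, *Uhrf1* per *Dnmt1* was 0.700 in WT, 0.498 and 0.421 in the mosaic pair, whose intervals overlapped, 0.595 in untreated rKO1, 0.776 in GFP+ and 1.06 in GFP- reexpressed cells. The last had an interval of 0.978 to 1.14, above those of the other 5 libraries.

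**Figure D3:**
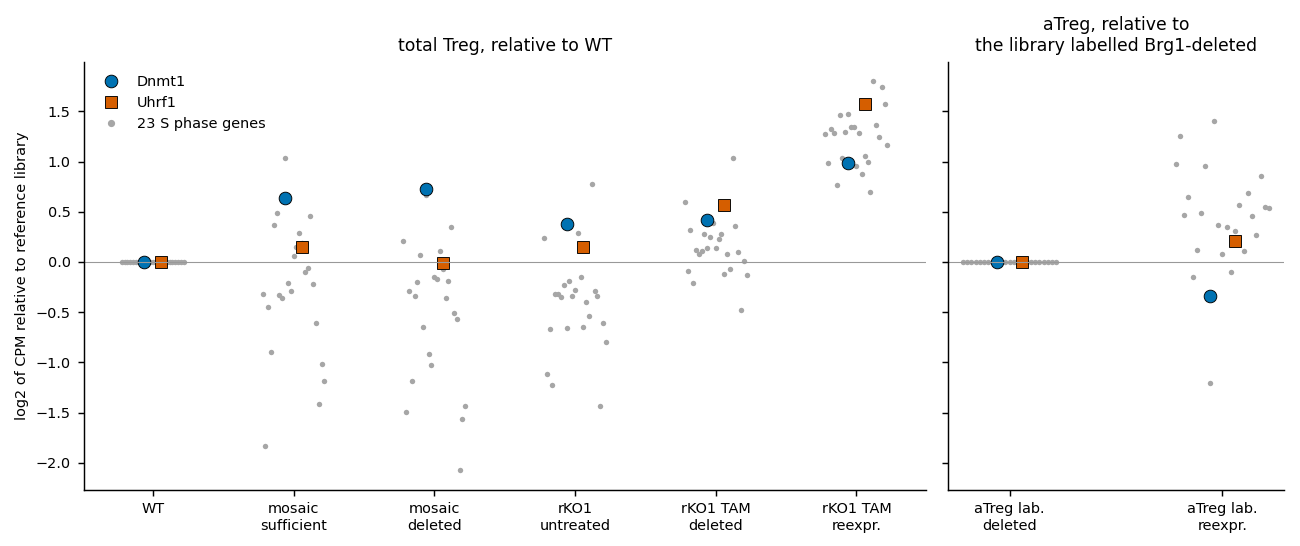
Log2 of the CPM of *Dnmt1* (blue), *Uhrf1* (orange) and 23 S phase genes (grey) relative to WT in the total Treg libraries and relative to the library labelled Brg1-deleted in aTreg cells. In the GFP- reexpressed library the S phase median was 1.28 above WT, with *Uhrf1* at 1.58 and *Dnmt1* at 0.98; in the mosaic Brg1-deleted library *Dnmt1* was at 0.73 and the S phase median at -0.34.

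Of the de novo enzymes, *Dnmt3a* had 48.2 CPM in WT, 76.2 and 79.5 CPM in mosaic Brg1-sufficient and Brg1-deleted cells, 71.5 CPM in untreated rKO1, 51.3 CPM in GFP+ and 38.6 CPM in GFP- reexpressed cells. Its 3 highest libraries, both mosaic ones and untreated rKO1, did not differ beyond counting error from their neighbours, and neither did GFP+ cells and WT. It was 1.33-fold lower (1.20 to 1.47) in reexpressed than in GFP+ cells, log2 -0.41, and differed by -0.06 (-0.16 to 0.03) in the mosaic pair. *Dnmt3a* has 16642 bases of merged exons, and long transcripts were lower in several of these libraries. The 500 tested genes nearest in length had a median of -0.31 in the rKO1 pair, -0.38 in WT over mosaic Brg1-sufficient cells and -0.12 in the mosaic pair, and with this trend taken off *Dnmt3a* came to -0.10, -0.28 and 0.05. The part of RNA quality or library preparation in the length trend was not tested.

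*Dnmt3b* was a low gene, with 6.72 CPM in WT, 7.71 and 6.93 CPM in the mosaic pair, 8.22 CPM in untreated rKO1, 6.41 CPM in GFP+ and 2.14 CPM in GFP- reexpressed cells. The first 5 of these did not differ beyond counting error from their neighbours in rank, and the reexpressed library stood apart below them. Its 36 reads against 118 in GFP+ cells made *Dnmt3b* 2.99-fold lower (2.05 to 4.48) there, log2 -1.58. Genes of this level varied widely between libraries of like status, with limits of 1.62 and 2.57, so the difference was past counting error and under both limits. Against WT (log2 -1.65, closer limit 1.56) and mosaic Brg1-sufficient cells (log2 -1.85, closer limit 1.39) the reexpressed library lay past the closer limit and under the wider one. Its exons are of 5106 bases, where the length trend was -0.02. In the mosaic pair it differed by 0.15 (-0.16 to 0.47). *Dnmt3a* per *Dnmt3b* reads ran from 7.16 to 11.5 in the other 5 total Treg libraries and reached 18.1 (12.9 to 26.0) in reexpressed cells.

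The TET genes were lower in the BRG1-positive library of both total Treg pairs. The log2 fold change of *Tet1* was -0.50 in the mosaic and -0.32 in the rKO1 pair, that of *Tet2* -0.35 and -0.42, and that of *Tet3* -0.40 and -0.76. The interval of *Tet1* in the rKO1 pair, -0.79 to 0.15, included 0, and the other 5 did not. Among all genes tested in both pairs, 28.1% were lower in both BRG1-positive libraries, and among the 524 genes with at least 12000 bases of exons, to which *Dnmt3a* and the 3 TET genes belong, 51.0% were. The same direction in a long gene was therefore common. With the length trend taken off, *Tet3* remained at -0.28 and -0.45, *Tet2* at -0.24 and -0.11 and *Tet1* at -0.38 and -0.01.

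The larger differences of *Tet1* and *Tet3* were between kinds of mice. Inflammation also differs between mosaic and rKO1 mice, so that kind of mouse and inflammation cannot be told apart. *Tet3*, whose enzyme is also the maternal TET of the zygote, had 46.8 CPM in WT, 93.4 and 123 CPM in mosaic Brg1-sufficient and Brg1-deleted cells, 46.8 CPM in untreated rKO1, 50.6 CPM in GFP+ and 29.9 CPM in GFP- reexpressed cells. *Tet1* had 4.80, 8.51, 12.0, 3.07, 5.10 and 4.10 CPM in the same order. Both mosaic libraries were thus above the other 4 for both genes, whatever their BRG1 status. *Tet3* was 2.63-fold higher (2.44 to 2.84) in mosaic Brg1-deleted than in untreated rKO1 cells and *Tet1* 3.91-fold (2.95 to 5.26), both past the wider limit, in a comparison where 15.4% of genes were called and the length trend was -0.10. Between BRG1-positive libraries, *Tet3* was 3.12-fold higher in mosaic Brg1-sufficient than in GFP- reexpressed cells, also past the wider limit, with 21.4% of genes called and a length trend of -0.54.

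*Tet2*, the TET gene most often mutated in blood cancers, ran otherwise. It had 30.2 CPM in WT, 23.9 and 30.5 CPM in the mosaic pair, 42.8 CPM in untreated rKO1, 40.6 CPM in GFP+ and 30.3 CPM in reexpressed cells. It was highest in both rKO1 Brg1-deleted libraries, which did not differ beyond counting error, and lowest in mosaic Brg1-sufficient cells. *Tet2* and *Tet3* have nearly equal merged exon lengths, of 16870 and 16695 bases. Their ratio within a library is not affected by scaling, and a trend with merged exon length would act on both alike. The lengths of the transcripts present were not measured, and the part of RNA quality or library preparation in the ratio was not tested. *Tet3* per *Tet2* reads were 3.91 (3.55 to 4.32) and 4.03 (3.72 to 4.37) in the mosaic pair, and 1.55 (1.38 to 1.74) in WT. In the rKO1 libraries the ratio was 1.09 (0.994 to 1.20) in untreated, 1.25 (1.13 to 1.38) in GFP+ and 0.988 (0.872 to 1.12) in reexpressed cells. The intervals of the mosaic pair overlapped and those of the rKO1 pair did not, and both mosaic libraries stood above all 4 others.

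**Figure D4:**
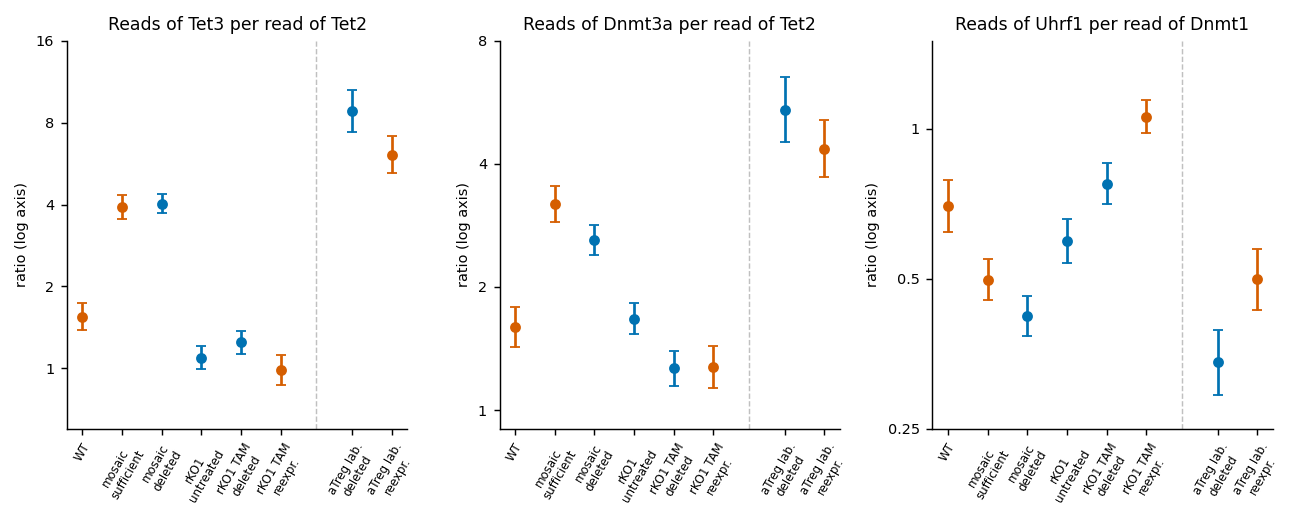
Reads of *Tet3* per *Tet2*, *Dnmt3a* per *Tet2* and *Uhrf1* per *Dnmt1* in each library (log axes), with exact 95% counting intervals; orange marks libraries labelled BRG1-positive, blue those labelled Brg1-deleted, and the dashed line parts total Treg from aTreg libraries. *Tet3* per *Tet2* was 3.91 and 4.03 in the mosaic libraries and between 0.988 and 1.55 in the other 4 total Treg libraries.

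*Dnmt3a* per *Tet2* was likewise 3.19 and 2.60 in the mosaic Brg1-sufficient and Brg1-deleted libraries and between 1.27 and 1.67 in WT and rKO1 cells. Several markers moved with this split. The 4 erythroid markers summed to between 125 and 139 CPM in the mosaic libraries, 464 CPM in WT and between 360 and 594 CPM in rKO1 cells. The 4 plasma cell markers summed to between 5.59 and 6.60 CPM, 14.8 CPM and between 13.1 and 33.9 CPM. The plasma cell sums were mainly *Jchain*, at 3.38 and 3.52 CPM in the mosaic libraries and 11.6 to 25.4 CPM in the other 4. *Mzb1*, *Sdc1* and *Tnfrsf17* did not part the libraries in this way. *Foxp3* stood at 534 and 244 CPM in the mosaic libraries and between 72.8 and 173 CPM in the other 4. In the mosaic pair its allele also differs by label, Foxp3+/+ in Brg1-sufficient and Foxp3YFP-Cre in Brg1-deleted cells. The T cell receptor component *Cd3e* was at 671 and 595 CPM in the mosaic libraries against 102 to 371 CPM. *Xist* was also highest in the mosaic libraries, at 136 and 164 CPM, with 52.5 CPM in WT and 0.520, 50.7 and 45.3 CPM in untreated, GFP+ and reexpressed rKO1 cells. The sum of the 7 Treg markers did not part the libraries in this way. The 7 myeloid markers summed to between 115 and 127 CPM in the mosaic libraries. This lay above rKO1 cells at 42.3 to 102 CPM and below WT at 395 CPM. The myeloid sums were mainly *Lyz2*, at 112 and 124 CPM in the mosaic libraries. *Csf1r*, *Adgre1*, *Cd14*, *S100a8* and *S100a9* did move with the split, each lower in both mosaic libraries than in the other 4. In the mosaic libraries *Adgre1* had 0.282 and 0.451 CPM, against 2.55 to 9.94 CPM. *S100a8* had 0.376 and 0.656 CPM, against 1.08 to 10.4 CPM. *Itgam* did not part the libraries. The part of these markers, of the animals' sex and of the inflammation of rKO1 mice in the *Tet3* and *Tet1* levels was not tested. In any of these bulk libraries, fewer cells that express a gene and less of its RNA per cell cannot be told apart.

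*Mbd2* on chromosome 18 was the steadiest of the 8 genes. It had 193 CPM in WT, 225 and 176 CPM in mosaic Brg1-sufficient and Brg1-deleted cells, 225 CPM in untreated rKO1, 199 CPM in GFP+ and 290 CPM in GFP- reexpressed cells. The BRG1-positive library was the higher one in both pairs, 1.28-fold (1.23 to 1.34) in the mosaic and 1.46-fold (1.39 to 1.52) in the rKO1 pair. These differences were past counting error and under the library-to-library limits, the closer of which were 0.66 and 0.69. *Mbd2* exons are of 3214 bases, and genes of this length had medians of 0.03 and 0.19. With that taken off, the log2 fold changes of *Mbd2* were 0.33 and 0.36.

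In aTreg cells, the directions below are those of the labels, against which *Smarca4* went. The library labelled Brg1-deleted and that labelled Brg1-reexpressed held 39.8 and 31.4 CPM of *Dnmt1*, 13.6 and 15.6 CPM of *Uhrf1*, 43.5 and 40.9 CPM of *Dnmt3a* and 6.33 and 5.94 CPM of *Dnmt3b*. For *Tet1*, *Tet2* and *Tet3* they held 2.37 and 3.10, 8.03 and 9.40, and 70.6 and 57.3 CPM, and for *Mbd2* 237 and 270 CPM. Only *Dnmt1* (1.27-fold lower, 1.14 to 1.42), *Tet3* (1.23-fold lower, 1.14 to 1.34) and *Mbd2* (1.14-fold higher, 1.09 to 1.19) differed beyond counting error in the library labelled Brg1-reexpressed. The other 5 intervals included equality.

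*Dnmt1* was again below the S phase genes. At a log2 fold change of -0.34 it lay below the same 22 genes, which had a median of 0.48, from -0.15 for *Cdt1*, a licensing factor, to 1.42 for *Gins1*. *Uhrf1* was at 0.21, with 17 of the 22 above it. *Uhrf1* per *Dnmt1* reads were 0.340 (0.293 to 0.395) and 0.498 (0.433 to 0.572) in the libraries labelled Brg1-deleted and Brg1-reexpressed, and *Tet3* per *Tet2* reads 8.80 (7.39 to 10.5) and 6.09 (5.21 to 7.16). Genes as long as *Tet3* had a median of -0.20 in this pair and *Tet3* was at -0.11 beyond it. The 4 erythroid markers summed to 1073 CPM in the library labelled Brg1-deleted and 19177 CPM in the other, and the 7 myeloid markers to 455 and 673 CPM. With erythroid and globin genes left out of the scaling, no log2 fold change of the 8 genes moved by more than 0.00041. TMM trims genes of extreme ratio or level in any case, so this small shift could hardly have come out otherwise. The part of other cells in the levels themselves was not tested.

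Over the mosaic, rKO1 and aTreg pairs, which share no library, the values of *Tet3* and *Dnmt3a* were lower and those of *Uhrf1* and *Mbd2* higher in the BRG1-positive library each time by label. This rests on the aTreg labels, and with that pair turned round none of the 4 genes would keep 1 direction. The intervals of *Dnmt3a* and *Uhrf1* also included equality in the mosaic and aTreg pairs. Of 9173 genes tested in all 3 pairs, 19.5% were lower and 21.3% higher throughout, and of the 507 long ones 39.4% were lower. *Dnmt3a* turned in sign with the length trend taken off, to 0.05 in the mosaic and 0.11 in the aTreg pair.

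Other genes of the methylation machinery were counted by fixed lists. Of 6 maintenance cofactors, all tested in the 3 pairs, 1 was called in 1 pair: *Hells*, the helicase that opens chromatin for DNA methylation, was 2.46-fold higher in mosaic Brg1-sufficient cells (45.0 against 18.3 CPM). In the rKO1 pair their median log2 fold change was 0.52, with 5 of 6 higher in reexpressed cells. The clamp gene *Pcna* was at 0.73 and the ligase gene *Lig1* at 0.96, both of which also serve replication in general. Of 5 de novo cofactors, 4 were tested in the mosaic pair and 3 in each of the others, and none was called. *Setd2*, whose H3K36 trimethylation guides DNMT3B to gene bodies, was at -0.63 in the rKO1 pair and *Qser1*, which shields DNA from de novo methylation, at -0.83 in the mosaic pair. *Dnmt3l*, the catalytically inactive DNMT3 partner of germ cells, had 0 reads in both libraries of the mosaic and aTreg pairs.

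Among 12 partners of active demethylation, 10, 10 and 11 were tested in the mosaic, rKO1 and aTreg pairs. *Gadd45b* was 2.19-fold higher and *Idh1*, which makes 2-oxoglutarate, the TET cosubstrate, 2.38-fold lower in mosaic Brg1-sufficient cells. *Gadd45g* was 2.12-fold lower in reexpressed cells, at 65.5 against 139 CPM. *Tdg*, the glycosylase that excises oxidised methylcytosine, was 2.94-fold higher in the aTreg library labelled Brg1-reexpressed, at 14.6 against 4.97 CPM. No gene of this list was called in more than 1 pair.

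Of the 6 other methyl-DNA readers, 5 were tested in each pair. All 5 had lower values in reexpressed rKO1 cells, 3 of them beyond counting error, with a median log2 fold change of -0.29, where 45.2% of all tested genes were lower, and *Zbtb4*, a zinc finger reader, was called at 2.47-fold lower (6.89 against 17.1 CPM). The 5 also had lower values in the aTreg library labelled Brg1-reexpressed, 4 beyond counting error, with a median of -0.32 and 55.1% of all tested genes lower, whereas the mosaic median was 0.33. With the length trend taken off, the medians of the rKO1 and aTreg pairs came to -0.09 and -0.15. None of the 4 genes of methyl donor supply was called. *Mat2a*, the catalytic subunit of methionine adenosyltransferase, was at 0.97 in the mosaic pair, the nearest to a call, and *Ahcy*, which clears S-adenosylhomocysteine, at -0.56 in aTreg cells.

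The 6 Treg genes known for demethylated regions were measured by RNA only. *Foxp3*, the lineage factor, was 2.19-fold higher in mosaic Brg1-sufficient than in Brg1-deleted cells (534 against 244 CPM). It stood at 109 and 105 CPM in reexpressed and GFP+ rKO1 cells. By label, the mosaic cells differ in their *Foxp3* allele as well as in BRG1, and the part of the allele was not tested. *Ctla4*, the inhibitory receptor, was 2.87-fold higher in reexpressed cells (464 against 162 CPM). No other gene of the list was called, and the list's median was -0.35, 0.26 and -0.10 in the mosaic, rKO1 and aTreg pairs. These libraries hold no methylation measurement.

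For the 5 genes with a range of at least 2-fold, the closest patterns over the 6 total Treg libraries were sought among 11013 genes by the Euclidean distance of centred log2 CPM. For *Dnmt3a* the nearest was *Nsd1*, the H3K36 methyltransferase of the de novo list, with 78.5, 123 and 123 CPM in WT and the mosaic pair, 106 CPM in untreated rKO1, 79.2 CPM in GFP+ and 59.0 CPM in reexpressed cells (distance 0.117, Pearson's r = 0.992 over 6 libraries). The exons of *Nsd1*, of 17483 bases, are as long as those of *Dnmt3a*, and *Ell* and *Fam219b*, next in rank at distances of 0.163 and 0.173, have short ones of 3108 and 3087 bases. *Tet3* lay nearest to *Pprc1*, *Crtc1* and *Foxk1* (0.224, 0.253 and 0.288), and *Tet1* nearest to *Ptgir*, *Xpo5* and *Naif1* (0.204, 0.285 and 0.393). *Uhrf1* lay nearest to *Stard4*, *Smc2*, a condensin subunit, and *Dtd2* (0.315, 0.340 and 0.356), and *Dnmt3b* to *Zmat1*, *Mib2* and *Parp3* (0.315, 0.366 and 0.381). *Zmat1*, like *Dnmt3b*, was lowest in reexpressed cells, at 2.38 CPM against 8.17 to 9.92 CPM elsewhere. These patterns rest on 6 points that share their libraries and scaling.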

How the data were processed

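RNA of sorted Treg cells was amplified by the Smart-Seq method and sequenced in paired ends, per the labels and the study's methods. HISAT2 2.0, StringTie 1.3.3b, featureCounts 1.5.0-p3 and mm10 are named in the submitters' processing notes. The values deposited by the authors are FPKM per gene, a unit read from the values, since no header names it. Reads were recovered as FPKM times the merged exon length in GENCODE M21 (GRCm38) times a library total. Of 53465 identifiers, 105 were not in that annotation. Values came out whole, within 0.02 of a read, for 93.4% of 26020 genes with reads in total Treg cells, for 1708 more after their length was fitted to their own FPKM, and for 100% of 21242 genes in aTreg cells. All 8 genes came out whole.

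Libraries were scaled by TMM, over both libraries of a pair for calls and over an experiment for levels and fold changes, with a prior of 0.125 reads (Python 3.11.15, NumPy 2.4.6, SciPy 1.17.1, pandas 2.3.3, matplotlib 3.10.9). With 1 library per condition no test was run, and intervals are exact (Clopper-Pearson) and cover counting error only, since reads without molecular identifiers are not independent molecules. The scripts were tested on simulated data. The 8 genes, all lists and the E2F words were chosen with earlier results of these data known. Named genes are the 8 genes, *Smarca4*, genes of the methylation lists called at 2-fold in a pair or otherwise the 2 with the largest change per list, the extremes of the S phase list, and the 3 genes nearest in pattern to each gene that ranged at least 2-fold. *Pcna* and *Lig1*, *Dnmt3l* and the 2 Treg markers' levels outside the called pairs were named after their values were seen. Alternatives changed the scaling, the CPM filter, the fold, the prior, the unit, the reference list and, chosen after seeing the data, the length trend and the erythroid genes.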

Additional observations from a re-analysis of the deposited data

Results flagged for a closer look

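The log2 fold change of *Dnmt1*, BRG1-positive over Brg1-deleted by label, was 0.56 in the rKO1 pair after TAM and -0.34 in the aTreg pair, each past counting error and in opposite directions. The difference between the pairs was not tested, as each rests on 1 library per condition. *Smarca4* went against the labels in aTreg cells, so the direction there holds by label only. In aTreg cells, 19 of 21 tested S phase genes and 10 of 10 tested mitosis genes had higher values in the library labelled Brg1-reexpressed. Of all tested genes, 55.1% were lower there. In rKO1 reexpressed cells, 22 of 22 and 12 of 12 had higher values, with 45.2% of all tested genes lower. Whether the aTreg labels are crossed was not tested.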

How the results depend on the processing

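No paired analysis was possible because each condition has 1 library, and for the same reason no replicate could be left out. Of 24 log2 fold changes of the 8 genes in the 3 pairs, none left its counting interval with scaling over the 2 libraries, the median of ratios, the deposited FPKM with a pseudocount of 0.1 or a prior of 2 reads, and 10 did by total count, with no change of sign. Among alternatives chosen after seeing the data, removal of the length trend moved 8 of 23. It changed the sign of *Dnmt3a* in the mosaic (0.05) and aTreg (0.11) pairs and of *Dnmt3b* in the aTreg pair (0.04). Scaling without erythroid genes moved none, but TMM already trims genes of extreme ratio or level. The 8 genes' calls in the rKO1 pair rose to 2 by total count (*Dnmt3b* and *Tet3*) and to 3 at 1.5-fold (with *Uhrf1*). Called genes in the mosaic, rKO1 and aTreg pairs numbered 592, 1297 and 646, and 7898, 8931 and 7632 with no filter on CPM, 1535, 2682 and 1735 at 1 CPM, and 1993, 3146 and 1993 at 1.5-fold. Relative to the mitosis median in place of the S phase median, *Dnmt1* lay at -0.68, -1.16 and -1.29 in place of -0.34, -0.45 and -0.82, and *Uhrf1* at -0.44, -0.72 and -0.74 in place of -0.10, -0.00 and -0.27. Depth limited *Dnmt3b* and *Tet1*, with 36 to 169 and 42 to 293 reads per library.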
